A study of Mus musculus with 15 samples.

Results

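A set of 8 complement genes was followed through the differentiation of mouse embryonic fibroblasts (MEFs) into adipocyte-like cells: C3, C4b, C2, Cfb, C1ra, Serping1, Masp1 and Cd55. They were taken by name, as components of the cascade and regulators of it, from the 46603 genes in the count files. By the sample labels the cells were wild-type BALB/c MEFs from 10.5-day embryos, whereas the paper's introduction describes MEFs from another strain and from older embryos. The cells were grown in DMEM with 10% foetal bovine serum, and RNA-Seq was made of 15 samples, 3 for each of 5 conditions. MEFD0 is day 0, before treatment. MEFD3plu and MEFD3min are treated and untreated cells at day 3, and MEFD5plu and MEFD5min are treated and untreated cells at day 5. Treatment was growth medium with 0.5 mM IBMX (a phosphodiesterase inhibitor), 10 µg/mL insulin, 1 µM dexamethasone (a glucocorticoid) and 10 µM rosiglitazone (an agonist of Pparg) for 3 days, after which the treated cells were returned to growth medium until day 5. MEFs are a mixed primary culture, so a level is an average over all cells of a dish, and in these bulk samples fewer cells of a type and less RNA per cell cannot be told apart.

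Complement is a chain of plasma and tissue proteins that marks surfaces for clearance and draws in inflammatory cells. The classical and lectin routes begin with pattern-binding molecules that activate serine proteases, C1r with C1s in the former and the MASP proteases in the latter. These lead to the cleavage of C4 and C2, which together form a convertase that cuts C3, while in the alternative route factor B, activated by factor D, serves that purpose. C1 inhibitor (Serping1) blocks the starting proteases, and decay-accelerating factor (Cd55) dismantles convertases on the cell's own surface. Most plasma complement is made in the liver, but adipose tissue is known as a source of C3, factor B and factor D, the last of these also being called adipsin.

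Sequencing depth ranged from 24030558 to 37281126 counts in a sample (median 33878281), so that after TMM scaling a single count equalled 0.0265 to 0.0389 CPM, the count of a gene per 1000000 counts of the library. Defining markers were present as the labels name the cells. The summed level of 10 adipocyte genes was 42.7 to 65.6 CPM in the 9 samples without treatment and 9681 to 13479 CPM in the 6 treated samples, and the 11 fibroblast genes were tested and present in every condition. Among macrophage genes Adgre1 had no count in any sample and Ptprc had at most 6 counts. However, 5 of the 10 passed the filter, Cd14 among them with 58 to 376 counts in a sample. The list of 10 summed to 7.52 to 20.5 CPM. The 6 endothelial genes, of which 2 were tested, summed to 1.00 to 18.7 CPM, and Emcn reached 610 counts in MEFD5min replicate 4. The 9 hepatocyte genes found summed to 3.70 to 5.55 CPM in MEFD3plu, the condition where C3 and Cd55 were highest, and to 1.01 to 2.89 CPM in the other conditions. Among them Ahsg had 58, 61 and 87 counts in MEFD3plu and at most 1 in any other sample. Alb had 25, 13 and 45 against at most 5. Apoa2 went the other way, with 58, 71 and 79 counts in MEFD3min and 28, 22 and 45 in MEFD3plu. By the test described below, 2 of the 4 hepatocyte genes tested were higher and 1 lower in MEFD3plu/MEFD3min (all genes tested: 28.0% and 28.0%). The part of these macrophage, endothelial and hepatocyte lists in the levels of the members was not tested. A single replicate of untreated day 3 cells, MEFD3min replicate 3, held 27 counts of the adipocyte gene Adipoq, where the other two held 0 and 1. The lowest total count and the lowest level of C1ra and Masp1 in its condition belonged to MEFD5min replicate 3.

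The complement genes did not move as a block (see the plot of levels by condition). Treatment was followed by a large rise of C3 on both days. C4b rose far less on day 3 than on day 5, and Cd55 rose to much the same extent on both days. C1ra, in contrast, was lower in treated than in untreated cells on day 3 and higher on day 5, and Masp1 was lower on both days, far more so on day 3. C2 was present at 3 to 24 counts in a sample and Serping1 at 0 to 15, and Cfb had at most 1 assigned count. By the quasi-likelihood test of edgeR, with p adjusted after Benjamini-Hochberg over 15997 genes and a gene called at an adjusted p under 0.05, 6 of the 8 members could be tested, Cfb and Serping1 being removed by the filter on low counts. Of these 6 members, 4 were higher and 2 lower in MEFD3plu/MEFD3min, where 28.0% of all genes tested were called higher and 28.0% lower. In MEFD5plu/MEFD5min, 4 were higher, 1 was lower and C2 did not pass, against a background of 26.3% higher and 24.2% lower. The median log2 fold change of the 6 was 1.37 on day 3 and 1.41 on day 5, and that of all genes tested was -0.00057 and 0.010. The methods speak of independent experiments in general, but neither they nor the labels tie the numbered RNA-Seq replicates to separate cultures or embryos, so these p-values measure the spread between the samples at hand.

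**Figure D1:**
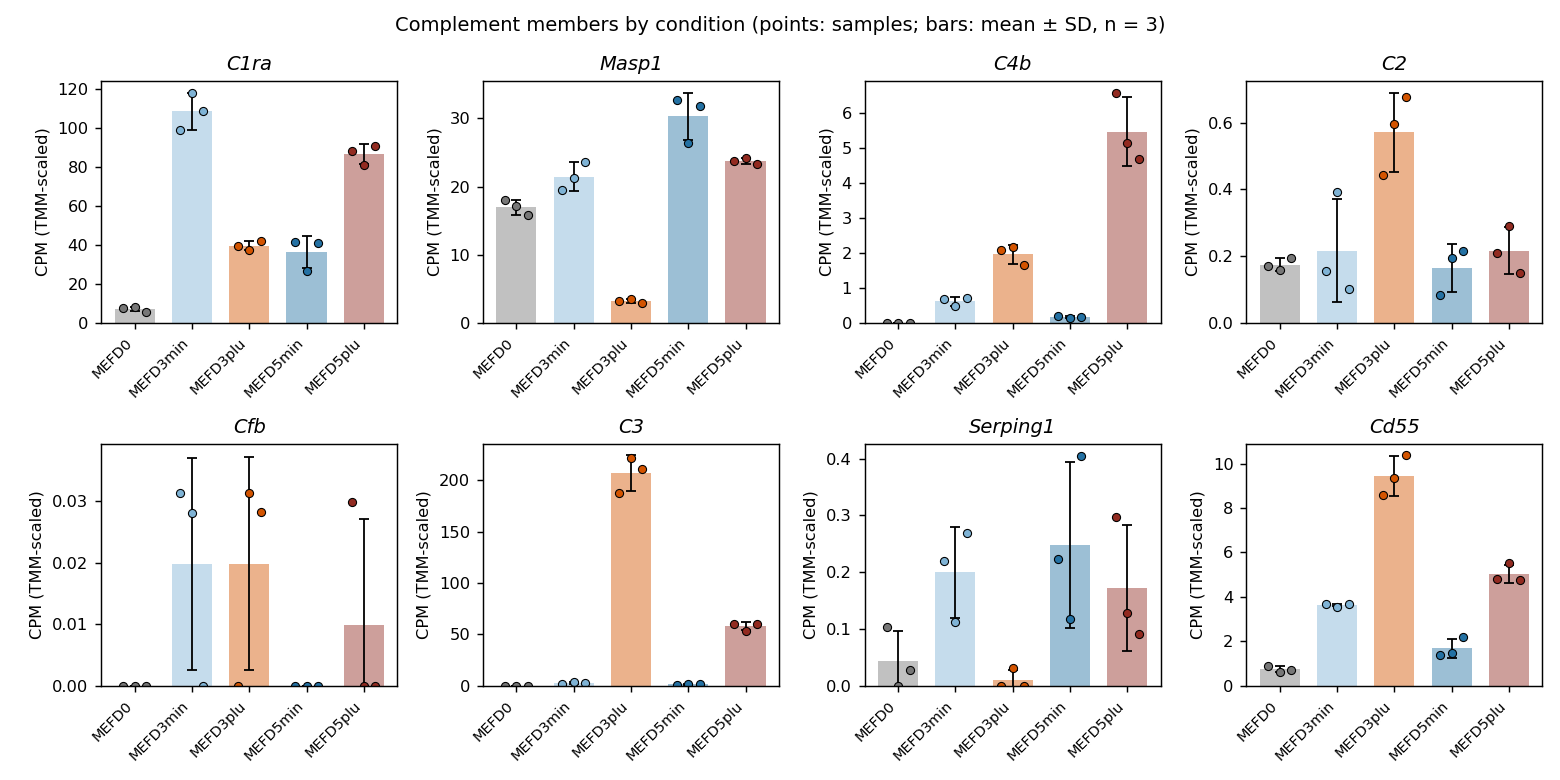
Level of each of the 8 members in TMM-scaled CPM (linear axes from 0, one scale per panel) in the 5 conditions; points are samples, bars the mean of 3 and whiskers the SD. C3 stands at 207 CPM in MEFD3plu and 58.0 in MEFD5plu against under 4 elsewhere, C1ra alternates between low and high, Masp1 is lowest in MEFD3plu, and Cfb never exceeds 1 count.

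In the mouse genome (GRCm38, GENCODE M21), 4 of the members lie on chromosome 17. C3 covers chr17:57203970-57228136 on the minus strand, and C4b (chr17:34728380-34743882), Cfb (chr17:34856374-34862518) and C2 (chr17:34862604-34898265) lie on the same strand in the major histocompatibility complex. C1ra lies at chr6:124512405-124523443 on the plus strand, and the others on minus strands, Serping1 at chr2:84765387-84775444, Masp1 at chr16:23449417-23520815 and Cd55 at chr1:130439027-130462744. Some of these genes share sequence. Of all 50-base stretches of their transcripts, 34.6% in C4b also occur in C4a and 48.0% in C1ra also occur in C1rb, whereas C3 and Serping1 share none with any other gene. The readthrough gene Gm20547, on the same strand, covers 79.5% of the exon bases of Cfb and 42.8% of those of C2, and it had no count in any of the 15 samples. How reads on shared bases were handled is not given in the sources used here, so the low counts of Cfb and C2 are those of reads assigned to these genes alone.

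RefSeq promoter windows of GRCm38.p6, from 250 bases before to 50 bases after the transcription start, were at hand for 3 of the 8 members. All 3 are shown, those of C3, C1ra and Cd55. Capitals mark every match, on either strand, to 7 short motifs: C/EBP (TTGCNNAA, in 10.8% of all 32851 windows), NF-kB (GGNNNTTCC, 18.5%), GAS (TTCNNNGAA, 8.3%), ISRE (GAAANNGAA, 8.56%), CRE (TGACGTCA, 1.79%), glucocorticoid (ACANNNTGT, 6.85%) and PPAR/RXR (GGTCANAGG, 1.72%). The window of C3 (chr17:57228087-57228386, minus strand) holds a match to the C/EBP motif from -45 to -38, counted from the start site. That of C1ra (chr6:124512371-124512670, plus strand) holds C/EBP letters on the minus strand from 16 to 23 and GAS letters from 32 to 40, both after the start, and its RefSeq start lies inside the gene as drawn by GENCODE. That of Cd55 (chr1:130462695-130462994, minus strand) holds NF-kB letters on the opposite strand from -60 to -52. No match overlaps another, none of the 3 windows holds letters of the ISRE, CRE, glucocorticoid or PPAR/RXR motif, and a match describes letters and is not a bound site.
C3 promoter: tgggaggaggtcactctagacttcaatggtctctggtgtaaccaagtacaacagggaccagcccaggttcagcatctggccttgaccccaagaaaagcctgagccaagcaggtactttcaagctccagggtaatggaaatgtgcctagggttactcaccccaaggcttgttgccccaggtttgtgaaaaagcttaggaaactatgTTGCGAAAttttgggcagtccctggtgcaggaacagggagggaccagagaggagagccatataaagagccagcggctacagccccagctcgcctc
C1ra promoter: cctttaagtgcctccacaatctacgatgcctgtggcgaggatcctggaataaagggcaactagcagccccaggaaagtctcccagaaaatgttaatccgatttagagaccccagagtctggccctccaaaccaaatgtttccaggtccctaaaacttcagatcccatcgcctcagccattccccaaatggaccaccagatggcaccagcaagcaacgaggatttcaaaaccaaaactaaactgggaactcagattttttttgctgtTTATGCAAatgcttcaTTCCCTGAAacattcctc
Cd55 promoter: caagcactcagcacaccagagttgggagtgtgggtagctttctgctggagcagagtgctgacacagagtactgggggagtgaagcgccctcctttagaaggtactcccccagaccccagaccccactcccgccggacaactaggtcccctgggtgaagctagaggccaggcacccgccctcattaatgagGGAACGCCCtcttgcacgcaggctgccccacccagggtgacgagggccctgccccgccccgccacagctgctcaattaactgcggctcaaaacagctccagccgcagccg

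C1ra encodes the protease C1r, which activates C1s once the recognition molecule C1q has bound. Its level was 7.51, 8.06 and 5.95 CPM in the MEFD0 samples (213 to 304 counts), 99.0, 118 and 109 in MEFD3min, and 39.4, 37.4 and 42.0 in MEFD3plu. At day 5 it was 41.4, 26.9 and 41.0 CPM in MEFD5min and 88.1, 81.3 and 91.1 in MEFD5plu. On neither day was there any overlap of treated with untreated samples, but the treated ones lay below the untreated ones on day 3 and above them on day 5. C1ra fell by 1.46 on the log2 scale in MEFD3plu/MEFD3min (SE 0.138, edgeR adjusted p = 9.38e-08) and rose by 1.25 in MEFD5plu/MEFD5min (SE 0.137, edgeR adjusted p = 1.19e-06). The treatment effect differed between the days by -2.71 (day 3 minus day 5, SE 0.194, edgeR adjusted p = 9.03e-09). In ascending order the conditions were MEFD0, MEFD5min, MEFD3plu, MEFD5plu and MEFD3min, and of these neighbours MEFD5min and MEFD3plu did not differ beyond their spread (edgeR adjusted p = 0.476), while MEFD5plu and MEFD3min were close to the threshold (edgeR adjusted p = 0.0494). Reads of C1ra and C1rb cannot be told apart over their shared stretches, but C1rb carried 2 to 15 counts in each sample.

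Among the partners of C1ra, C1s1, which encodes the next protease of the chain, followed the same order, with 7.99 ± 1.05 CPM in MEFD0, 285 ± 14.5 in MEFD3min against 115 ± 8.48 in MEFD3plu, and 123 ± 12.5 in MEFD5min against 240 ± 6.65 in MEFD5plu (SD, n = 3), except that MEFD3plu and MEFD5min, which overlapped, changed places. Its log2 fold change was -1.31 on day 3 and 0.97 on day 5 (edgeR adjusted p = 3.48e-09 and 3.29e-07). C1qa, C1qb and C1qc, the chains of C1q that would recruit both proteases, had no count in any of the 15 samples.

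Masp1, whose proteins include a protease of the lectin route, had its lowest level in MEFD3plu. It measured 18.0, 17.2 and 15.8 CPM in MEFD0, 19.5, 21.3 and 23.6 in MEFD3min and 3.24, 3.57 and 2.99 in MEFD3plu. It measured 32.7, 26.4 and 31.9 CPM in MEFD5min and 23.8, 24.2 and 23.4 in MEFD5plu. The 3 samples of treated day 3 cells thus lay far below all others, day 0 included, and on day 5 the treated samples lay just under the untreated ones without overlap. The log2 fold change was -2.71 on day 3 (SE 0.118, a level 6.57-fold lower, edgeR adjusted p = 4.65e-12) and -0.35 on day 5 (SE 0.102, edgeR adjusted p = 0.00821), and the difference between the days was -2.36 (SE 0.155, edgeR adjusted p = 3.04e-09). From MEFD3plu to MEFD5plu, after the return to growth medium, Masp1 rose 7.28-fold (log2 2.86, SE 0.118, edgeR adjusted p = 6.11e-12). In the ascending order MEFD3plu, MEFD0, MEFD3min, MEFD5plu, MEFD5min, the neighbours MEFD3min and MEFD5plu did not differ beyond their spread (edgeR adjusted p = 0.228). The small rise from MEFD0 to MEFD3min (0.34, SE 0.103, edgeR adjusted p = 0.00977) was not called when libraries were scaled by total counts (0.21, adjusted p = 0.0802).

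Genes that begin these routes, apart from the members, were mostly too low to test: 5 of the 14 on the list were tested, C1s1 among them. On day 3, 1 was higher and 4 were lower (background 28.0% and 28.0%), and on day 5, 2 were higher and none was lower (background 26.3% and 24.2%). Colec12, a membrane collectin and scavenger receptor, was the most abundant of them per exon length in every condition by mean, and it fell from 1079 CPM in MEFD3min to 540 in MEFD3plu and rose from 408 in MEFD5min to 951 in MEFD5plu (edgeR adjusted p = 7.26e-07 and 1.41e-07). Mbl1 and Mbl2, which encode mannose-binding lectins, had no count in any sample.

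C4b encodes complement component 4, whose larger fragment binds covalently to the target and anchors the C3 convertase. No read was assigned to C4b in the 3 MEFD0 samples. It had 22, 17 and 21 counts in MEFD3min (0.689, 0.477 and 0.706 CPM), 61, 69 and 59 in MEFD3plu (2.08, 2.16 and 1.66 CPM), 7, 4 and 6 in MEFD5min (0.195, 0.156 and 0.162 CPM) and 221, 160 and 155 in MEFD5plu (6.58, 5.16 and 4.67 CPM). The 5 conditions formed 5 separate levels without overlap, in the ascending order MEFD0, MEFD5min, MEFD3min, MEFD3plu, MEFD5plu, and every pair of neighbours passed the test (the largest edgeR adjusted p was 0.000654, MEFD3min above MEFD5min). Treatment raised C4b by 1.66 on the log2 scale on day 3 (SE 0.258, 3.15-fold, edgeR adjusted p = 5.64e-05) and by 4.96 on day 5 (SE 0.300, 31.1-fold, edgeR adjusted p = 4.11e-09), a difference between days of -3.30 (SE 0.413, edgeR adjusted p = 1.19e-05). Against a floor of 3 counts in each MEFD0 library, C4b was at least 61.7-fold higher in MEFD5plu and at least 22.2-fold higher in MEFD3plu than in MEFD0, and at least 7.04-fold and 1.93-fold higher in MEFD3min and MEFD5min. These bounds, like the other floors and counting intervals here, cover counting error only.

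C4a, the neighbouring near copy of C4b, had 1 to 22 counts in each sample and did not pass the test in treated against untreated cells on day 3 (log2 1.18, edgeR adjusted p = 0.109) or day 5 (0.43, edgeR adjusted p = 0.553). Its counts in MEFD0, where C4b had none, were 7, 1 and 3.

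C2 encodes the protease that joins the C4 fragment in the convertase. Its counts were 5, 6 and 7 in MEFD0, 5, 14 and 3 in MEFD3min and 13, 19 and 24 in MEFD3plu, then 3, 5 and 8 in MEFD5min and 7, 9 and 5 in MEFD5plu. In CPM the means were 0.175 ± 0.0185, 0.217 ± 0.155, 0.572 ± 0.118, 0.165 ± 0.0711 and 0.216 ± 0.0700 (SD, n = 3). MEFD3plu held the 3 highest values after scaling, and the other 4 conditions overlapped. The log2 fold change was 1.36 on day 3 (SE 0.469, edgeR adjusted p = 0.0210) and 0.39 on day 5 (edgeR adjusted p = 0.582), where the 95% interval ran from -0.68 to 1.47 and so held both a fall and a more than 2-fold rise. The day 3 call was lost when any of 4 single samples was left out (MEFD3min replicate 1 or 4, MEFD3plu replicate 3 or 4, adjusted p = 0.0529 to 0.0960), in a fit of the compared samples alone (adjusted p = 0.0525) and without the filter on low counts (adjusted p = 0.0795). Without MEFD3min replicate 3, the sample with 14 counts, the fold change was 2.12 on the log2 scale.

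Cfb, which encodes factor B of the alternative route, had at most 1 count in each sample: 2 in all in MEFD3min, 2 in MEFD3plu, 1 in MEFD5plu, and 0 in MEFD0 and MEFD5min. All 15 values were at or under the floor of 3 counts, which corresponds to 0.0795 to 0.117 CPM in single samples. A difference between conditions was not detectable in the reads assigned to Cfb. Reads on the 79.5% of its exon bases shared with Gm20547 may be missing from these counts, since their handling is not given. Cfd, the gene of the protease that activates factor B, was by contrast among the complement genes that rose most with treatment, with 2013 counts in the 3 MEFD3plu samples (20.8 ± 1.93 CPM) against 3 in MEFD3min, all of them in the replicate that also held Adipoq counts, a ratio of 675 with a 95% counting interval of 230.6 to 3276. In MEFD5plu it had 9249 counts (94.7 ± 3.48 CPM) against 0 in MEFD5min, at least 1008-fold higher. Cfp, which encodes properdin, the stabilizer of the alternative convertase, did not pass on either day (log2 0.06 and -0.35, edgeR adjusted p = 0.888 and 0.350).

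C3, on whose cleavage all routes meet, was the member with the widest range. Day 0 cells held 2, 2 and 1 counts (0.0686, 0.0530 and 0.0279 CPM), at the floor. Untreated cells held 54, 115 and 86 counts on day 3 (1.69, 3.23 and 2.89 CPM) and 43, 43 and 55 on day 5 (1.20, 1.67 and 1.49 CPM). Treated cells held 5493, 7075 and 7490 counts on day 3 (187, 222 and 211 CPM) and 2021, 1657 and 2007 on day 5 (60.2, 53.4 and 60.5 CPM). Every treated sample stood far above every untreated one, and the treated samples of day 3 stood above those of day 5. The log2 fold change was 6.30 in MEFD3plu/MEFD3min (SE 0.168, edgeR adjusted p = 1.43e-14) and 5.33 in MEFD5plu/MEFD5min (SE 0.174, edgeR adjusted p = 2.01e-13), which is 79.0-fold and 40.3-fold, and the day 3 effect was larger by 0.97 (SE 0.242, edgeR adjusted p = 0.00319).

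All neighbours in the order MEFD0, MEFD5min, MEFD3min, MEFD5plu, MEFD3plu differed for C3, though the step from MEFD5min to MEFD3min (0.86, SE 0.202, edgeR adjusted p = 0.00234) was not called in a fit of the compared samples alone (adjusted p = 0.0539). The ratio of C3 in MEFD3plu to MEFD0, where it had 5 counts in all, was 4260 with a 95% counting interval of 1825 to 13122, and that of MEFD5plu to MEFD0 was 1194 (511.5 to 3680). Untreated cells had also risen above MEFD0, with a ratio of 53.8 (22.8 to 167) on day 3 and 29.4 (12.3 to 92.0) on day 5. The sample with most C3 among the untreated ones by CPM, MEFD3min replicate 3, was the one with 27 Adipoq counts, and the part of adipocyte-like cells in its level was not tested.

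Serping1, the gene of C1 inhibitor, was low throughout. It had 3, 0 and 1 counts in MEFD0, 7, 4 and 8 in MEFD3min and 0, 1 and 0 in MEFD3plu, then 8, 3 and 15 in MEFD5min and 10, 4 and 3 in MEFD5plu. On day 3 each untreated sample lay above each treated sample, and on day 5 the groups overlapped. Summed over 3 samples, the ratio of MEFD3min to MEFD3plu was 18.9 from 19 and 1 counts, with a 95% counting interval of 3.00 to 785, and that of MEFD5min to MEFD5plu was 1.52 from 26 and 17 counts (0.793 to 2.98). These intervals leave out the spread between replicates, and Serping1 was not in the test over all genes.

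Cd55, the surface regulator, measured 0.892, 0.636 and 0.726 CPM in MEFD0 (24 to 26 counts), 3.67, 3.57 and 3.67 in MEFD3min and 8.59, 9.34 and 10.4 in MEFD3plu. It measured 1.40, 1.48 and 2.19 CPM in MEFD5min and 4.83, 5.51 and 4.76 in MEFD5plu. No pair of conditions overlapped, and in the order MEFD0, MEFD5min, MEFD3min, MEFD5plu, MEFD3plu, which was also that of C3, every pair of neighbours passed the test, the closest being MEFD3min and MEFD5plu (0.47, SE 0.167, edgeR adjusted p = 0.0240). Treatment raised Cd55 by 1.38 on the log2 scale on day 3 (SE 0.164, edgeR adjusted p = 1.58e-06) and by 1.56 on day 5 (SE 0.179, edgeR adjusted p = 1.88e-06). The difference between the days was -0.18, with a 95% interval from -0.66 to 0.29 (edgeR adjusted p = 0.559). Its near copy Cd55b had at most 1 count in each sample.

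**Figure D2:**
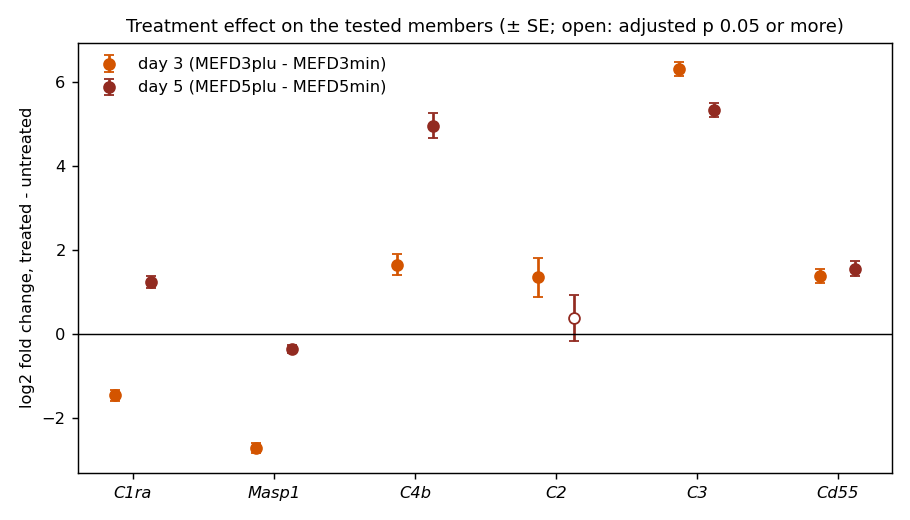
Log2 fold change of treated against untreated cells for the 6 tested members on day 3 (orange) and day 5 (dark red), with SE; an open marker has an adjusted p of 0.05 or more. C3 is well above 0 on both days and higher on day 3 (6.30) than on day 5 (5.33), Cd55 is at 1.38 and 1.56, C4b is far higher on day 5 (4.96) than on day 3 (1.66), and C1ra changes sign, from -1.46 to 1.25.

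The treatment by day interaction was called for 4 of the 6 members, 1 in the direction of a larger log2 fold change on day 3 (C3) and 3 in the other (C4b, C1ra and Masp1), where 22.6% and 25.8% of all genes tested were called in these directions. For C2 (0.96, SE 0.733, edgeR adjusted p = 0.298) and Cd55 it was not. Genes of the interferon response moved between the conditions as well. The summed level of 18 of them (Isg15, Gbp2 and others) was 81.0 to 89.1 CPM before treatment, 2636 to 3525 in MEFD3min against 91.2 to 102 in MEFD3plu, and 657 to 1513 in MEFD5min against 5967 to 6182 in MEFD5plu. All 18 were lower with treatment on day 3 and higher on day 5, as was C1ra, while C4b was higher on both days. The fibroblast list also stood apart in MEFD3min, with a sum of 25022 to 36335 CPM against 10677 to 16394 in the other conditions. Its genes did not all rise, since in MEFD3min/MEFD0 7 of the 11 were called higher and 3 lower (background 31.4% and 28.6%). The part of either list in the levels of the members was not tested.

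Culture without treatment also changed the members. In MEFD3min/MEFD0, 5 of the 6 were higher and none was lower (background 31.4% higher and 28.6% lower), with a median log2 fold change of 3.10 against 0.041 over all genes, and C2 did not pass. C1ra rose 15.1-fold (log2 3.92, SE 0.156, edgeR adjusted p = 1.77e-12) and Cd55 4.86-fold (2.28, SE 0.202, edgeR adjusted p = 3.42e-08). MEFD5min/MEFD0 gave the same split of 5, 0 and 1 (background 24.5% and 21.9%), with a median of 1.77, C1ra being 5.09-fold and Masp1 1.79-fold higher (edgeR adjusted p = 1.62e-09 and 4.36e-06). Between the untreated conditions, MEFD5min/MEFD3min, 1 member was higher and 4 were lower (background 21.3% and 21.5%). Masp1 was the one that rose (0.50, SE 0.102, edgeR adjusted p = 0.000742), whereas C1ra fell by 1.57, C4b by 1.82, Cd55 by 1.09 and C3 by 0.86 on the log2 scale.

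After the return of treated cells to growth medium (MEFD5plu/MEFD3plu), 3 members were higher and 3 lower (background 33.8% and 29.2%). Masp1, C4b (1.48, SE 0.222, edgeR adjusted p = 3.83e-05) and C1ra (1.13, SE 0.137, edgeR adjusted p = 2.04e-06) rose. C3 fell by 1.83 on the log2 scale (SE 0.130, edgeR adjusted p = 3.40e-09), Cd55 by 0.91 (SE 0.160, edgeR adjusted p = 0.000108) and C2 by 1.40 (SE 0.472, edgeR adjusted p = 0.0162). The C2 call was lost without the filter on low counts (adjusted p = 0.0565) and without MEFD3plu replicate 4 or MEFD5plu replicate 4 (adjusted p = 0.0575 and 0.0734). The change of medium and the passage from day 3 to day 5 cannot be told apart in MEFD5plu/MEFD3plu. Over the same days Cd55 and C3 also fell and Masp1 also rose in untreated cells, whereas C4b and C1ra fell there. Compared with day 0, MEFD3plu had 5 members higher and 1 lower, which was Masp1 (background 33.9% and 29.7%), and MEFD5plu had 5 higher and none lower, C2 not passing (background 35.2% and 29.8%). The comparisons with MEFD0 share those 3 samples, so their counts are not independent of each other.

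Levels can be set against each other only per length. Per kilobase of exon, C1ra was the highest member by mean at day 0 (2.41 CPM per kb), in untreated cells (36.4 on day 3, 12.2 on day 5) and in MEFD5plu (29.1), but C3 (40.2) exceeded it (13.3) in MEFD3plu. Masp1 lay between 0.332 and 3.08, Cd55 between 0.155 and 1.94, and C4b did not exceed 0.961 CPM per kb. C1s1 was above C1ra in every condition by mean, reaching 91.2 CPM per kb in MEFD3min. In MEFD0 the 2 genes lay within their spread, at 2.55 ± 0.337 and 2.41 ± 0.368 CPM per kb (SD, n = 3). Lengths were not adjusted for 50-base stretches shared with other genes, 35.1% in C1s1 and 50.8% in C1ra. The heat map of the levels per kilobase places the members beside other complement genes that could be tested.

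**Figure D3:**
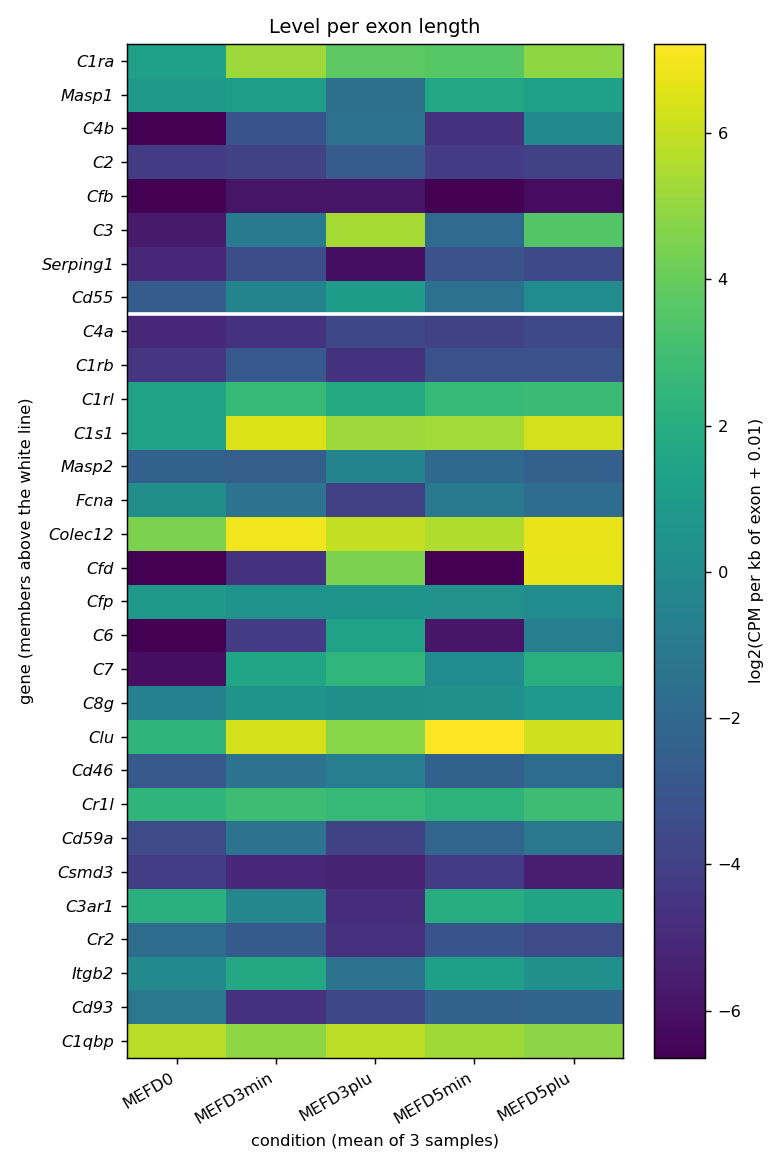
Mean level per exon length, as log2(CPM per kb + 0.01), in the 5 conditions (3 samples each) for the 8 members above the white line and 22 other tested complement genes below it. The rows of C3, Cfd and C6 are brighter in the treated than in the untreated conditions, C1ra and C1s1 are brightest in MEFD3min and MEFD5plu, and Cfb stays dark.

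Of the 53 other complement genes on the list, 23 could be tested. On day 3, 8 of them were higher and 11 lower in treated cells (median log2 fold change -0.28, background 28.0% higher and 28.0% lower), and on day 5, 8 were higher and 5 lower (median 0.20, background 26.3% and 24.2%). C6 and C7, components of the membrane attack complex, were among the higher ones. C6 had 866 against 15 counts on day 3, a ratio of 58.1 (95% counting interval 35.0 to 104). Of these, the MEFD3min samples held 10, 3 and 2, a spread that the interval leaves out. On day 5 it had 218 against 3 counts, a ratio of 73.2 (24.7 to 357.7). C7 changed by 0.99 and 2.02 on the log2 scale (edgeR adjusted p = 0.00105 and 3.03e-06). C1qbp (0.97) and Cd46 (0.69) were also higher on day 3 (edgeR adjusted p = 1.65e-08 and 0.0295).

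Among the genes that were lower, C3ar1, the receptor of the C3a fragment, fell by 5.05 on day 3 and by 0.51 on day 5 on the log2 scale (edgeR adjusted p = 1.98e-09 and 0.0184), so that in MEFD3plu, where C3 was highest, C3ar1 had 5, 3 and 2 counts. Clu, which encodes clusterin, an inhibitor of the membrane attack complex, fell by 1.54 and 0.98 (edgeR adjusted p = 2.00e-09 and 9.73e-07), and Itgb2, a chain of the complement receptors of leukocytes, fell by 3.09 and 0.90 (edgeR adjusted p = 1.46e-09 and 0.000712). C1qbp, a C1q-binding protein of mitochondria, which was higher on day 3, was lower on day 5 (-0.42, edgeR adjusted p = 0.000345).

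Of the other membrane regulators, Cd46, which was called higher on day 3, was at 0.61 on day 5 without passing the test (edgeR adjusted p = 0.0804). Cr1l, which encodes the rodent regulator Crry, was -0.28 on day 3 and 0.57 on day 5 (edgeR adjusted p = 0.00898 and 2.42e-05), and Cd59a, whose protein blocks the membrane attack complex, was -2.67 and 1.04 (edgeR adjusted p = 0.000124 and 0.0332), the latter call being lost in several alternatives. The interaction was called for Cr1l (-0.85) and Cd59a (-3.70) (edgeR adjusted p = 1.65e-05 and 9.90e-05). Over the 23 genes the log2 fold change was called larger on day 3 for 3 and larger on day 5 for 12 (background 22.6% and 25.8%).

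**Figure D4:**
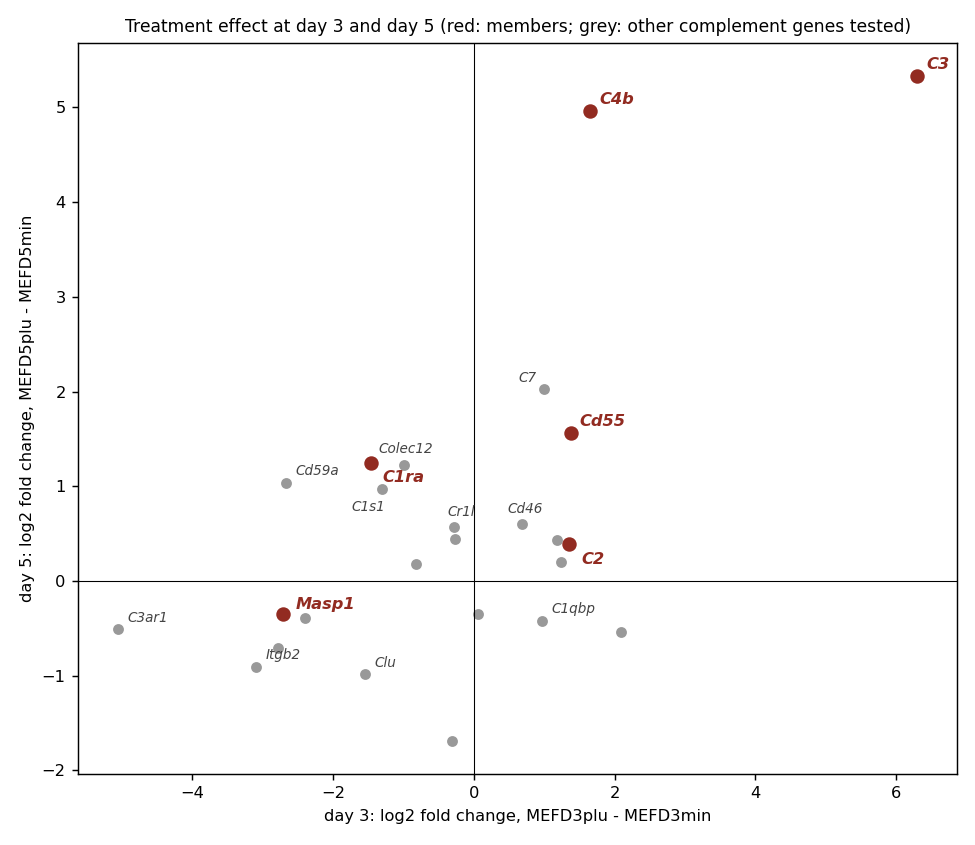
Log2 fold change of treated against untreated cells on day 3 (x axis) and day 5 (y axis) for the 6 tested members (red) and 19 other complement genes (grey), 3 genes being left out because all samples of a compared condition were at or under 3 counts. C3, C4b and Cd55 lie in the upper right, Masp1 in the lower left, and C1ra with C1s1 and Colec12 in the upper left.

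Across the 15 samples, C3, Cd55 and C4b had the most similar courses among the members, with Pearson's r on log2 CPM of 0.954 for C3 with Cd55, 0.920 for C3 with C4b and 0.891 for C4b with Cd55. Masp1 ran against C2 (r = -0.811) and C3 (r = -0.564), and r was 0.120 between Masp1 and C1ra. These values describe 15 points that fall into 5 conditions, so they mainly restate the differences between conditions and carry no test. Among 9571 genes of at least moderate level, those most like C3 were Mfsd8, Aifm2 and Ormdl3 (r = 0.992, 0.992 and 0.991), and those most like Cd55 were Adamts12, Stard5 and Bckdha (0.982, 0.981 and 0.981). The closest to C4b were Ifi207, Adhfe1 and Acadsb (0.992, 0.984 and 0.983), and to C1ra they were 4932438A13Rik, Rab3il1 and Scarb2 (0.991, 0.987 and 0.986). Masp1 was most like Pla2g7, Tmem37 and Anks1b (0.986, 0.979 and 0.976), and for C2 the highest values were lower, at 0.863 for Zfp672, 0.860 for Afg3l2 and 0.859 for Ppp1r37.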

How the data were processed

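RNA-Seq of 15 MEF samples was used. The authors deposited raw counts of reads per Ensembl gene for each sample, without normalization; the submitters' processing notes name TopHat2 2.1.0, HTSeq, DESeq2 and GRCm38/mm10. The annotation release, strand setting and handling of reads that match several places are not given in the sources used here, and the labels and the methods name different library kits, so reads of overlapping antisense genes may not be separable. Identifiers were matched to GENCODE M21 (46005 of 46603 had a name). Groups came from sample titles.

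In R 4.3.3, edgeR 4.0.16 kept 15997 genes (filterByExpr), scaled libraries by TMM and fitted all 15 samples by condition without covariates (glmQLFit, glmQLFTest). A gene was called when its p, adjusted by Benjamini-Hochberg over all genes tested, was under 0.05. Genes at or under 3 counts in every sample of a condition were taken as at the floor. Ratios then carry 95% exact (Clopper-Pearson) counting intervals, as do those of C6 on day 3 and Serping1 on day 5. CPM are TMM-scaled, per kb of merged exons where stated. Likeness was taken on log2 CPM (prior count 2) over genes whose mean was at least 3. Named were all members, the 4 other complement genes that rose and the 4 that fell most on each day (mean log2 CPM of at least 0), Cfd, C1s1, Cr1l, Cd59a, near copies, the 3 most similar genes to each member and up to 3 markers per cell type; C1qa to C1qc, Mbl1, Mbl2, C6 and Cfp were added after their values were seen, and genes withheld from this text are not reported here. The members and lists were chosen with earlier results of these data known.

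Alternatives were DESeq2 1.42.0, its size factors in edgeR, total counts, no filter, at least 10 counts in every sample, only the samples compared, stricter thresholds, the fit blocked by replicate number, and leaving out single samples. Replicate numbers 1, 3 and 4 recur in every condition, and no source says what they share. Deviations of same-numbered samples correlated at 0.143, 0.228 and 0.360 in MEFD3plu/MEFD3min, which meets the criterion for pairing (over 0.1 in every pair), and not in every pair elsewhere. All values printed come from the fit without the block unless the block is named. Steps were tested on simulated data.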

Additional observations from a re-analysis of the deposited data

Results flagged for a closer look

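The treatment effect differed between day 3 and day 5 by the interaction term of edgeR's quasi-likelihood test for 4 members. Given as the log2 fold change on day 3 minus that on day 5, the difference was 0.97 for C3, -3.30 for C4b, -2.71 for C1ra and -2.36 for Masp1. The adjusted p-values were 0.00319, 1.19e-05, 9.03e-09 and 3.04e-09. For C1ra the groups did not overlap on either day and lay in opposite order, with all 3 treated samples lower on day 3 and all 3 higher on day 5. For the other 3 genes the sign was the same on both days and the size differed.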

How the results depend on the processing

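Requiring at least 10 counts in every sample left 12251 genes, from which C3, C4b and C2 were missing. The members called were then 3 in each comparison between conditions and 2 in the interaction. The other complement genes called were 9 on day 3, 7 on day 5 and 8 in the interaction. Of the 12251 genes, 7306 were called on day 3, 6904 on day 5 and 6838 in the interaction, and 6021 to 8595 over the comparisons between conditions. With a 2-fold minimum as well (share of all genes not computed), 6 other complement genes remained on day 5 and 3 members in MEFD5min/MEFD3min. C2, which was not called there, changed sign when a sample was left out, with a log2 fold change from -0.43 to 0.65 in MEFD3min/MEFD0, from -0.42 to 0.23 in MEFD5min/MEFD0 and from -0.75 to 0.33 in MEFD5min/MEFD3min. Of the log2 fold changes in all alternatives, 902 kept their direction and side of the threshold, 19 lost their call and 3 changed sign. The interaction of Cfd was not called without MEFD3min replicate 3, the only sample of that condition with counts (adjusted p = 0.9999). With the replicate block the members called were 6 on day 3, 5 on day 5 and 4 in the interaction, and no call of a member changed. Of 15997 genes, the block gave 9452 calls on day 3, 8607 on day 5 and 8305 in the interaction. By replicate number, 11 of 15 samples correlated best with their own number. Scaling by total counts moved the median of all genes by -0.16 on day 5, by -0.12 in MEFD3min/MEFD0, by 0.10 in MEFD5min/MEFD3min, by -0.10 and -0.18 in MEFD3plu/MEFD0 and MEFD5plu/MEFD0 and by 0.18 in the interaction. The share of calls that were higher went from 52.1% to 37.0% on day 5, from 49.7% to 62.7% in MEFD5min/MEFD3min, from 54.2% to 43.7% in MEFD5plu/MEFD0, from 52.3% to 43.9% in MEFD3min/MEFD0, from 53.3% to 46.6% in MEFD3plu/MEFD0 and from 46.7% to 59.5% in the interaction. Low counts limit C2, Serping1 and Cfb.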
